A study of Mus musculus with 19 samples.

Results

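The genes described here encode synaptic adhesion molecules and synaptic organizers, the surface proteins that hold the membranes of a synapse together and instruct its assembly. Members were all genes of the deposited table whose symbol starts with Cntn, Cntnap, Nrxn, Nlgn, Lrrtm, Tenm, Adgrl, Adgrb, Cadm, Dscam, Ncam, Clstn, Ptprd, Il1rapl, Lrfn, Slitrk or Flrt, a rule that uses names and no measured values, although the set was picked with earlier results of these data known. The table held 44 such genes of 8336 in all, and they belonged to 16 families. The measured quantity was extrachromosomal circular DNA (eccDNA), that is DNA circles cut loose from the chromosomes, in cervical spinal cord of 9 symptomatic *hSOD1G93A* mice, the ALS group, and of 10 control mice, with 1 library per animal. The ALS animals were males of B6.Cg-Tg(SOD1*G93A)1Gur/J, in which a mutant human *SOD1* is overexpressed constitutively. They had a motor severity score of 1 or 2, reached at 18 to 21 weeks of age. Control animals were C57BL/6J mice matched in sex and age. Mutants without motor symptoms by the target age were left out, so that the ALS group stands for the symptomatic stage. Since DNA and not RNA was sequenced from whole cervical cord, markers of expression cannot check the tissue, and more circles per cell cannot be told apart from a change in the cells that release them.

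At a synapse, a presynaptic receptor such as a neurexin or a receptor phosphatase reaches across the cleft and binds a postsynaptic ligand such as a neuroligin, an LRRTM or an IL1RAPL protein. Adhesion G protein-coupled receptors form a further layer, in which latrophilins bind teneurins and FLRT proteins. Contactins and their associated CNTNAP proteins act mostly along axons, and only some of them near nodes of Ranvier, the gaps in the myelin where the axon is exposed. SynCAM, NCAM and DSCAM proteins bind copies of themselves or of close relatives. Many of the genes are among the longest of the mammalian genome, with small exons in very large introns. An eccDNA on such a gene is in most cases a fragment of it and not a copy that could be read into protein.

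Each value is log2(PpGC + 1), where PpGC (produced per gene circles) counts the split reads of a gene's eccDNAs, reads that cross the junction of a circle, and raises the count of short genes in proportion to the longest one. A gene on which no eccDNA was kept is listed at 0, as were 91.1% of all values, and the lowest member value above 0 corresponds to 2 split reads. The number of genes with an eccDNA lay between 694 and 2204 per ALS library and between 57 and 723 per control library, so that 8 of the 9 ALS libraries held more than every control. Split reads on genes ranged from 74017 to 391395 per ALS library and from 3583 to 123388 per control library, and the table states no sequencing depth.

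An eccDNA was found on 19.4 ± 5.61 (SD, n = 9) of the 44 genes per ALS library and on 5.00 ± 4.94 (SD, n = 10) per control library. The median was 18.0 in ALS, with 13 as the lowest count and 27 as the highest. In controls it was 3.00, between 1 and 16. ALS 3 held the most members, 27, followed by ALS 1 and ALS 8 with 26 each. Among the controls, control 1 with 16 members and control 2 with 11 stood above the rest, which held 7 or fewer. The groups overlapped, and 6 of the 9 ALS libraries held more members than every control. Over all pairs of a gene and a library, 44.2% of the members' values were above 0 in ALS and 11.4% in controls, against 15.6% and 2.92% over all genes.

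**Figure D1:**
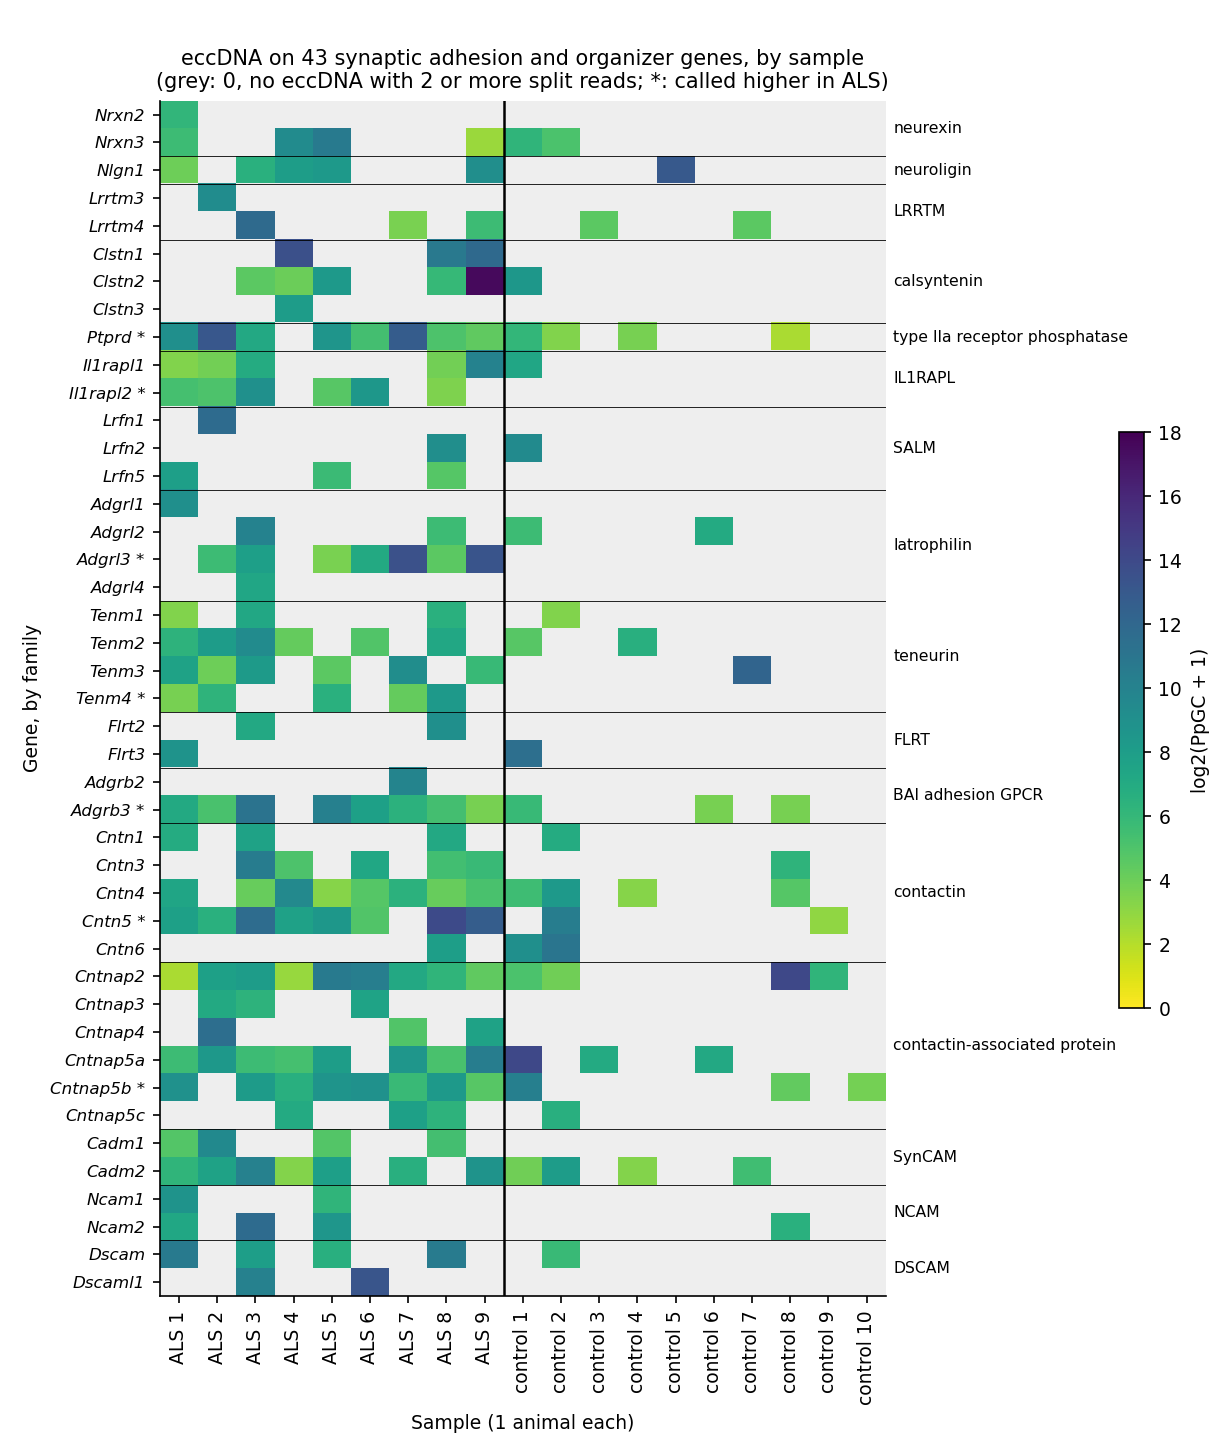
Heatmap of log2(PpGC + 1) for 43 of the genes (rows, grouped by family) in the 9 ALS and 10 control samples (columns), with grey for 0 and asterisks at the 7 genes called higher in ALS. Coloured cells are spread over the ALS columns, whereas controls 3 to 7, 9 and 10 hold at most 4 each.

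Relative to all genes with an eccDNA in the same library, the order of the groups was not the same. Members made up 1.54% ± 0.253 (SD, n = 9) of these genes in ALS and 1.97% ± 0.723 (SD, n = 10) in controls, with ranges of 1.23% to 1.87% and 0.769% to 3.19%. Pooled over libraries, members were 175 of 11710 genes with an eccDNA in ALS (1.49%) and 50 of 2434 in controls (2.05%). For comparison, members are 0.528% of the genes of the table and 3.33% of their summed length. The count of members therefore moved with the load of the library, and the share did not separate the groups.

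**Figure D2:**
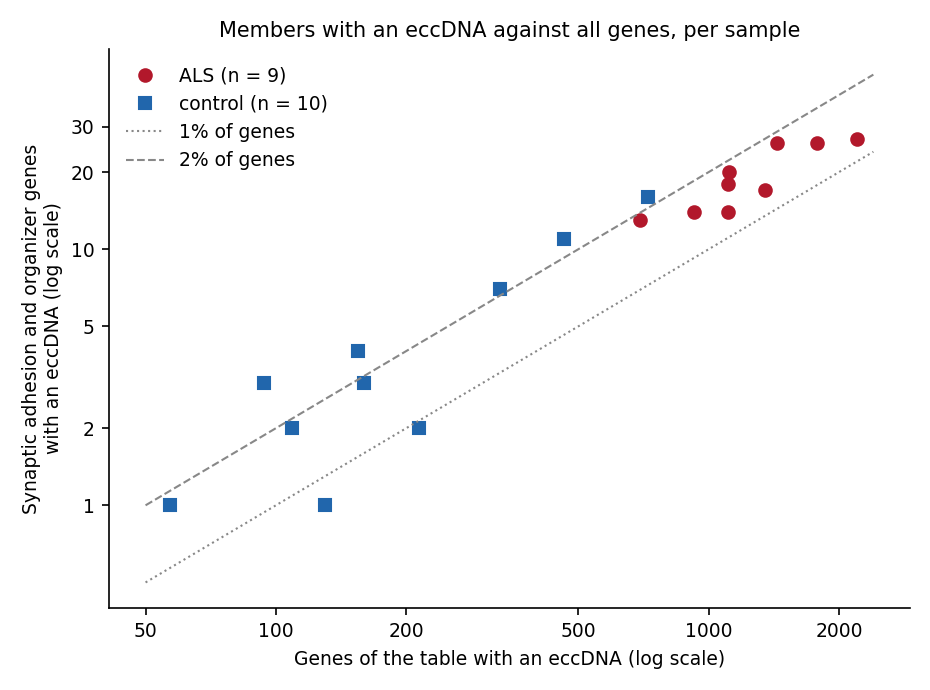
Members with an eccDNA (vertical axis, log scale) against all genes with an eccDNA (horizontal axis, log scale), 1 point per sample, with lines at 1% and 2% of genes. ALS samples lie at 694 to 2204 genes and control samples at 57 to 723, and most points of both groups fall between or near the lines.

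To find members that differed between the groups, a rule built on the thresholds in the study's methods was applied to every gene of the table, namely a gap between the group means above 1 on the log2 scale together with p under 0.01 in the equal-variance test of means named there (two-sided here). By this rule 7 of the 44 members were called higher in ALS (15.9%), against 1.33% of all 8336 genes. They were *Adgrb3*, *Adgrl3*, *Cntn5*, *Cntnap5b*, *Il1rapl2*, *Ptprd* and *Tenm4*. None was called lower, as was also the case for 0% of all genes. The mean was higher in ALS for 42 members and lower for *Cntn6* and *Flrt3*, and the median difference was 2.50 over the members and 1.19 over all genes. With Benjamini-Hochberg adjustment over all 8336 genes, 0 members stayed under 0.05 in that test and 0 in the exact permutation test. The smallest adjusted values were 0.278 and 0.284, and in limma's moderated test 0 members passed as well, with a smallest adjusted value of 0.0626. The outcome depended on the genes adjusted over. Among only the 1276 genes with an eccDNA in 3 or more samples, 32 of them members, 4 members had an adjusted value under 0.05. The count of all genes passing in that subset is not given here. Without adjustment, 12 members were under 0.05 in the test of means, 11 in the exact permutation test and 19 in limma, against 350, 310 and 611 of all 8336 genes.

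All 7 called genes are longer than 500 kb, and their background among genes of that size is higher. Of the 22 members over 500 kb, 7 were called (31.8%), against 24.1% of all 232 genes over 500 kb and 23.3% of the 210 such genes that are no members. Between 200 and 500 kb, 0 of 9 members were called, against 5.39% of all 798 genes of that length, and 0 of 13 shorter members. Read against the other genes over 500 kb, the excess of called members was small. In the broader class of genes over 141 kb, 20.0% of 35 members were called, against 6.13% of 1583 other genes. This class is not matched for length, as 22 of its members and 210 of its other genes exceed 500 kb. Neither contrast was tested.

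**Figure D3:**
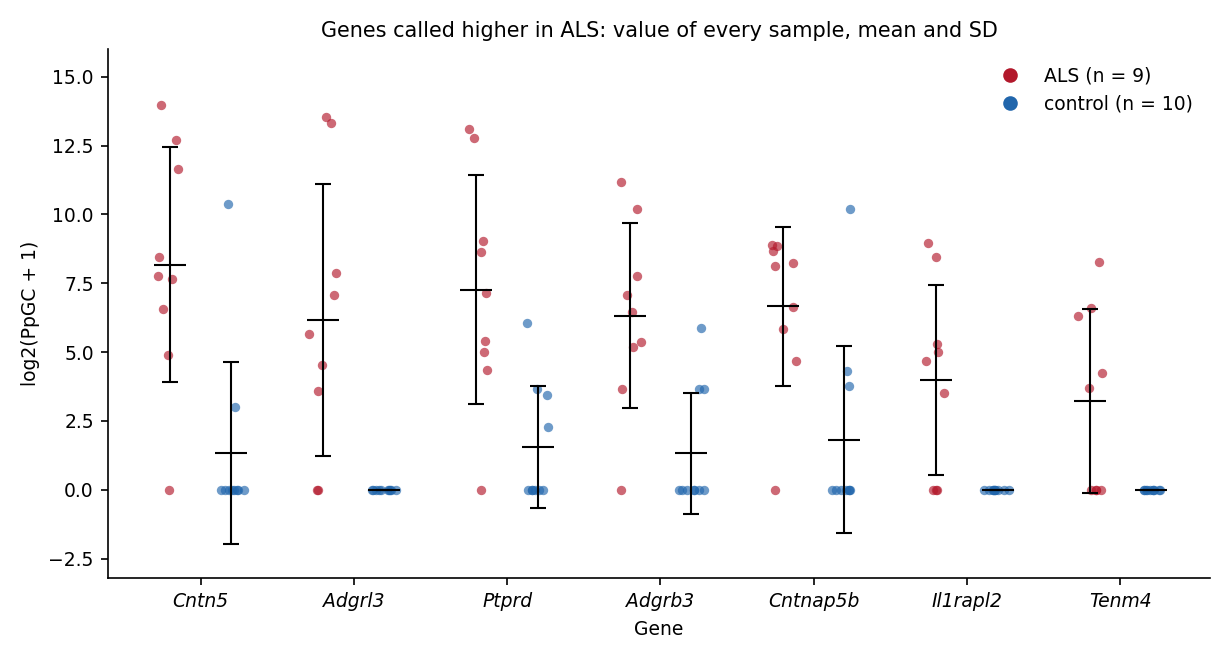
Values of log2(PpGC + 1) in every sample (points, ALS red, control blue) for the 7 genes called higher in ALS, with the mean (horizontal bar) and SD (whiskers, which reach below 0 because of the values at 0). Controls are at 0 in all 10 samples for *Adgrl3*, *Il1rapl2* and *Tenm4*, and each gene has at least 1 ALS sample at 0.

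Neurexins are the presynaptic hubs to which many postsynaptic organizers bind, and neither *Nrxn2* nor *Nrxn3* was called. *Nrxn3* on chromosome 12 (1612 kb) was above 0 in 4 ALS samples and 2 controls, a difference of 2.02 (exact permutation p = 0.238). Most of its signal lay in ALS 5 at 10.68 and ALS 4 at 9.35, and the control values were 6.23 and 5.09. With 1 library left out, the difference ran from 1.08 (without ALS 5) to 2.59 (without control 1). *Nrxn2*, of 125 kb, had a value above 0 in 1 ALS sample only.

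None of the postsynaptic ligands of neurexins was called. *Nlgn1*, the neuroligin of excitatory synapses (chromosome 3, 906 kb), held an eccDNA in 5 ALS samples, at 3.97 to 9.09, and in control 5 alone among the controls, at 12.98. This control library had the highest value of the gene, so that the groups overlapped, and the difference was 2.69 (exact permutation p = 0.169). Without control 5 it was 3.98 and passed the call rule (exact permutation p = 0.0294). *Lrrtm4*, a leucine-rich repeat ligand that also binds heparan sulfate proteoglycans, was found in 3 ALS and 2 control samples. Its ALS values were 11.80, 5.68 and 3.61 and both control values 4.55, with a difference of 1.43 (exact permutation p = 0.347). Without ALS 3, which held the highest value, the difference was 0.25. *Lrrtm3* was above 0 in 1 ALS sample.

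Calsyntenins bind neurexins and also link cargo to kinesin motors. *Clstn2* (chromosome 9, 589 kb) carried the highest value of any member, 17.54 in ALS 9, where 25261 split reads fell on it. The other ALS values were 8.24, 5.94, 4.56 and 4.01, with 4 ALS samples at 0, and control 1 was at 8.44. The groups overlapped and the difference of 3.63 did not reach the rule (exact permutation p = 0.0774). That library gave 99.6% of the split reads on the gene, and without it the difference was 2.00. *Clstn1* and *Clstn3*, of 62.4 and 34.0 kb, had an eccDNA in 3 ALS samples and 1 ALS sample and in no control.

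*Ptprd* encodes protein tyrosine phosphatase receptor delta, a presynaptic type IIa receptor phosphatase that binds IL1RAPL, SALM and SLITRK proteins across the cleft. It is the longest member (chr4:75941238-78211961 in mm10, 2271 kb), and its mean was 7.27 ± 4.17 (SD, n = 9) in ALS and 1.55 ± 2.20 (SD, n = 10) in controls. ALS values ran from 0 in ALS 4 over a median of 7.15 to 13.10 in ALS 2. Controls had a median of 0 and were highest in control 1, at 6.07. An eccDNA was present in 8 ALS and 4 control samples, and 5 of the 9 ALS values were above every control. The difference of 5.73 was called higher (exact permutation p = 0.00167). ALS 2 and ALS 7 held 4502 and 3575 of its 8669 split reads in ALS, while 6 further ALS libraries had 10 to 270.

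Among the postsynaptic partners of *Ptprd*, *Il1rapl2* was called higher and *Il1rapl1* was not. Both lie on the X chromosome, encode interleukin-1 receptor accessory protein-like molecules and are of like size, 1276 and 1375 kb. *Il1rapl2* was at 0 in every control and above 0 in 6 ALS samples, with a median of 4.66 and a highest value of 8.96 in ALS 3. ALS 4, ALS 7 and ALS 9 were at 0 as the controls were, and the difference was 3.99 (exact permutation p = 0.00310). *Il1rapl1* was found in 5 ALS samples, highest in ALS 9 at 9.99, and in control 1 at 7.34, with a difference of 2.37 (exact permutation p = 0.119). This difference was 1.51 without ALS 9 and 3.11 without control 1. The paralogs shared 4 of the 7 ALS samples in which either had an eccDNA. The difference between their effects was not tested.

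SALM proteins, encoded by *Lrfn* genes, are postsynaptic adhesion molecules that bind to type IIa receptor phosphatases or to each other. *Lrfn1*, the shortest member at 16.3 kb, had an eccDNA only in ALS 2, at 11.68 from 12 split reads. *Lrfn2* was above 0 in ALS 8 at 9.14 and in control 1 at 9.39, which left a difference of 0.08 (exact permutation p = 1.00). *Lrfn5* was found in 3 ALS samples at 4.78 to 7.82. The SLITRK genes, a further family of phosphatase ligands, span at most 12.1 kb each and are not analysed here.

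Latrophilins are adhesion G protein-coupled receptors that bind teneurins and FLRT proteins. *Adgrl3*, a latrophilin known from human genetics of attention deficit disorder (chr5:81020138-81825133, 805 kb), had the smallest exact permutation p of the members. It was at 6.17 ± 4.94 (SD, n = 9) in ALS, from 0 in ALS 1 and ALS 4 over a median of 5.66 to 13.54 in ALS 7, and at 0 in all 10 controls. The difference of 6.17 was called higher (exact permutation p = 7.14e-04), and 7 ALS samples lay above every control. ALS 7 with 2159 and ALS 9 with 1871 held most of its 4111 split reads, and the other 5 libraries above 0 had 2 to 42. *Adgrl2* (175 kb) was found in 2 ALS samples at 9.99 and 5.69 and 2 control samples at 7.00 and 5.69, with a difference of 0.47 (exact permutation p = 0.791). *Adgrl1* and *Adgrl4* were each above 0 in 1 ALS sample.

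Teneurins are large transmembrane proteins that guide axons to their targets and bind latrophilins. *Tenm4*, which is also required for myelination of small axons (chr7:96171246-96911093, 739.8 kb), was the only teneurin called higher. Its mean was 3.23 ± 3.34 (SD, n = 9) in ALS, with 5 samples between 3.70 and 8.26 and 4 at 0, and every control was at 0. The difference of 3.23 had an exact permutation p of 0.0108, above the limit, and the call rested on the p of 0.00686 in the test of means. It rested on few reads, 85 split reads in all, of which ALS 8 held 51. When 1 library at a time was left out, *Tenm4* stayed called in 4 of 19 cases and was lost in 15. *Tenm2* (chromosome 11, 1229 kb) was above 0 in 6 ALS samples and 2 controls, a difference of 3.32 (exact permutation p = 0.0323), or of 3.93 and called without control 4. For *Tenm3* (chromosome 8, 616 kb) the count was 6 and 1, and the difference 3.15 (exact permutation p = 0.0926). The control eccDNA of *Tenm3* was in control 7, at 12.17 above every ALS value, and without this library the difference was 4.37 and called. *Tenm1*, on the X chromosome, was found in 3 ALS samples and 1 control sample.

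FLRT proteins bind latrophilins and netrin receptors. *Flrt3*, of 20.6 kb, had a mean lower in ALS by a difference of -0.17, with 8.76 in ALS 1 and 11.45 in control 1 as the only values above 0 (exact permutation p = 1.00). *Flrt2* was found in 2 ALS samples and no control.

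The BAI proteins are adhesion receptors that bind complement C1q-like proteins at synapses. *Adgrb3* (chr1:25067476-25829707, 762 kb) was called higher, at 6.32 ± 3.36 (SD, n = 9) in ALS against 1.32 ± 2.21 (SD, n = 10). ALS values ran from 0 in ALS 4 over a median of 6.46 to 11.16 in ALS 3, and the 3 control values above 0 were 5.89, 3.66 and 3.66. An eccDNA was present in 8 ALS and 3 control samples, and the difference was 5.00 (exact permutation p = 0.00209). *Adgrb2* had an eccDNA in 1 ALS sample.

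Contactins are GPI-anchored immunoglobulin proteins of axons and glia. *Cntn5* (chr9:9660891-10904775, 1244 kb), expressed in sensory and auditory pathways, had the largest difference of all members. Its mean was 8.18 ± 4.28 (SD, n = 9) in ALS and 1.34 ± 3.31 (SD, n = 10) in controls. ALS values ran from 0 in ALS 7 over a median of 7.77 to 13.96 in ALS 8, while 8 controls were at 0, control 9 at 3.02 and control 2 at 10.37. The difference of 6.84 was called higher (exact permutation p = 0.00206). ALS 8, ALS 9 and ALS 3 held 4474, 1848 and 895 of its 7466 split reads in ALS, and 3 ALS values lay above the highest control.

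The contactins of chromosome 6 gave smaller differences. *Cntn4* (chr6:105677660-106699310, 1022 kb) was found in 8 ALS samples, at 3.28 to 9.53, and in 4 controls, at 3.28 to 8.25. It differed by 2.81 (exact permutation p = 0.0516), and by 3.49 without control 2, where it passed the rule. *Cntn3* (chr6:102162655-102573101) had an eccDNA in 5 ALS samples, with 10.43 in ALS 3 as the highest, and in control 8 at 6.26, a difference of 3.15 (exact permutation p = 0.0418). *Cntn6* (chr6:104492790-104863406), which lies between them, had the lowest difference of all members, -1.13 (exact permutation p = 0.598). Without ALS 8 the difference was -2.01. Without control 2 it was -0.13 and no longer the lowest, as *Flrt3* was then at -0.30. *Cntn6* was above 0 in ALS 8 at 7.91 and in controls 1 and 2 at 9.04 and 11.02. These are 2 of the 4 controls in which *Cntn4* was found. *Cntn1* was above 0 in 3 ALS samples and 1 control.

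CNTNAP proteins are neurexin-like partners of contactins. *Cntnap2*, whose protein Caspr2 clusters potassium channels beside the node of Ranvier, is next to *Ptprd* in length (chr6:45059357-47304213, 2245 kb) and was the only member with an eccDNA in all 9 ALS samples. Its ALS values ran from 2.31 over a median of 7.16 to 10.68, and 4 controls were above 0, at 3.89, 5.11, 6.25 and, in control 8, 14.11. The groups overlapped and the difference of 3.69 was not called (exact permutation p = 0.0581). Control 8 held 8978 split reads on the gene, and without it the difference was 4.93 and called (exact permutation p = 0.00317). *Cntnap3* and *Cntnap4* were each found in 3 ALS samples and no control.

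*Cntnap5a*, *Cntnap5b* and *Cntnap5c* are close paralogs of this family, *Cntnap5a* and *Cntnap5b* on chromosome 1 and *Cntnap5c* on chromosome 17. *Cntnap5b* (chr1:99772765-100485942, 713 kb) was called higher, at 6.66 ± 2.90 (SD, n = 9) in ALS and 1.82 ± 3.39 (SD, n = 10) in controls. Its SD in ALS was the smallest of the called genes, with values from 4.69 to 8.89 in 8 samples with a median of 8.13 over all 9, and 0 in ALS 2. Controls were at 0 in 7 samples and at 3.75, 4.30 and 10.20 in the others, and control 1 was thus above every ALS sample. The difference was 4.84 (exact permutation p = 0.00620). *Cntnap5a* (chr1:115684756-116587323, 903 kb) was also found in 8 ALS samples, at 5.15 to 10.36, and in 3 controls at 7.01, 7.11 and 14.11. It differed by 3.51 (exact permutation p = 0.0828), and by 4.77 and called without control 1, whose 3608 split reads made up 86.8% of all on the gene. Both paralogs held an eccDNA in 7 of the 9 ALS samples and in 1 control sample. *Cntnap5c* was found in 3 ALS samples and 1 control sample, with a difference of 1.69.

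As reads from near-identical sequence can be placed on the wrong paralog, the coding exon with the highest identity among the 3 genes, of those between 100 and 200 bases with equal length, is shown here. It is 172 bases long and lies on the plus strand at chr1:116188264-116188435 in *Cntnap5a*, chr1:100164068-100164239 in *Cntnap5b* and chr17:58104597-58104768 in *Cntnap5c* (GRCm38, the build also called mm10). Capitals mark the positions at which the 3 genes do not all carry the same base.
Cntnap5a: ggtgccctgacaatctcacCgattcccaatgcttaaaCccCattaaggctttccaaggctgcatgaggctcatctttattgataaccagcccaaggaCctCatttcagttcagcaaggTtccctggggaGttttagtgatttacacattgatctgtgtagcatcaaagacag
Cntnap5b: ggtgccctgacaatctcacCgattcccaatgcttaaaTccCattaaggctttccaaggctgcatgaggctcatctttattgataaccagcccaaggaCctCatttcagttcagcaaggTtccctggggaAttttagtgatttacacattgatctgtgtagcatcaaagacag
Cntnap5c: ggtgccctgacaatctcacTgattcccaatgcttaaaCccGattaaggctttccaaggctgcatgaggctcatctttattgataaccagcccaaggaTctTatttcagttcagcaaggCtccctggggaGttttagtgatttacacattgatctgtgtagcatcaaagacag
In this exon *Cntnap5a* and *Cntnap5b* were identical at 170 of 172 bases (98.8%), *Cntnap5a* and *Cntnap5c* at 167 (97.1%), and *Cntnap5b* and *Cntnap5c* at 165 (95.9%).

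Over whole genes, such sequence was rare. Outside repeats masked in the genome, *Cntnap5a* and *Cntnap5b* shared 321 stretches of 32 bases, which is 0.0885% of those of *Cntnap5b*. Of the 946 pairs of members, 12 shared any such stretch, and the largest share of the smaller gene was 0.0906%, for *Cntnap5b* and *Cntnap5c*. How many split reads fell on these stretches was not tested, since the table gives no position of a circle.

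SynCAM proteins bind each other across the cleft and promote synapse formation. *Cadm2* (chr16:66655421-67620908, 965 kb) was found in 7 ALS samples, from 3.35 in ALS 4 to 10.11 in ALS 3, and in 4 controls at 3.35, 3.89, 5.55 and 8.04. The difference of 3.52 was not called (exact permutation p = 0.0359), and without control 2 it was 4.18 and called. *Cadm1* (327 kb), which held no control eccDNA, was found in 4 ALS samples at 4.81 to 9.43 and differed by 2.71 (exact permutation p = 0.0325).

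In the families of homophilic adhesion molecules no gene was called. *Dscam* (chromosome 16, 579.9 kb), named after Down syndrome, was found in 4 ALS samples at 6.65 to 10.55 and in control 2 at 5.77, a difference of 3.38 (exact permutation p = 0.0542). *Dscaml1* and *Ncam1* had an eccDNA in 2 ALS samples each and in no control, and *Ncam2* in 3 ALS samples and 1 control sample. The differences of these 3 genes lay between 1.67 and 2.59.

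Partners of these proteins that do not carry the listed names were looked up as a second list, with 47 extracellular partners or bridging ligands and 29 intracellular scaffolds, of which the table held 28 and 18. Of these 46 genes, 3 were called higher (6.52%) and none lower, against 1.33% of all genes called higher. For genes of 200 to 500 kb, the length of 1 of the 3, the background is 5.39%, and for those over 500 kb, the length of the other 2, it is 24.1%. The mean was higher in ALS for 43 of the 46, as for 7212 of all 8336 genes. *Lrrc4c*, the netrin-G ligand NGL-1 (chromosome 2, 1313 kb), was found in 8 ALS samples and 1 control sample and differed by 6.13 (exact permutation p = 0.00174). The scaffold genes *Dlgap2*, a partner of postsynaptic PSD-95 (chromosome 8, 752 kb), and *Epb41l3*, a band 4.1 protein that ties adhesion molecules to the membrane skeleton (chromosome 17, 214 kb), were each found in 7 ALS samples and no control. They differed by 6.45 and 5.66, with an exact permutation p of 7.14e-04 for each. Of the partners that were not called by this rule, *Dlgap1*, a further PSD-95 partner found in 7 ALS samples and 2 controls, differed by 4.34 (exact permutation p = 0.0225) and *Unc5d*, a FLRT receptor, by 2.97 (exact permutation p = 0.0430). With limma's moderated test *Dlgap1* was called as well, which made 4 partners, among 166 called of all 8336 genes. The median difference was 1.33 over the extracellular partners and 2.38 over the scaffolds, against 2.50 over the members.

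Gene length ordered the members in both groups. Their median length was 503 kb, from 16.3 kb in *Lrfn1* to 2271 kb in *Ptprd*, against 49.3 kb over all genes of the table, and 9 of them exceed 1 Mb. Members up to 50 kb held an eccDNA in 1.00 ALS samples on average, those of 50 to 200 kb in 1.75, those of 200 to 500 kb in 2.89 and those over 500 kb in 5.91. In controls the numbers were 0.200, 0.375, 0.556 and 1.86. Across the 44 genes, the number of ALS samples with an eccDNA and log10 length had a Pearson r of 0.77 and a Spearman rho of 0.84, and in controls 0.58 and 0.65. The genes share the same libraries and are no replicates, and these values are a description. Of the 62 genes that carry the listed names in the GENCODE annotation, the 18 not analysed here have a median length of 12.9 kb and reach at most 73.3 kb.

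**Figure D4:**
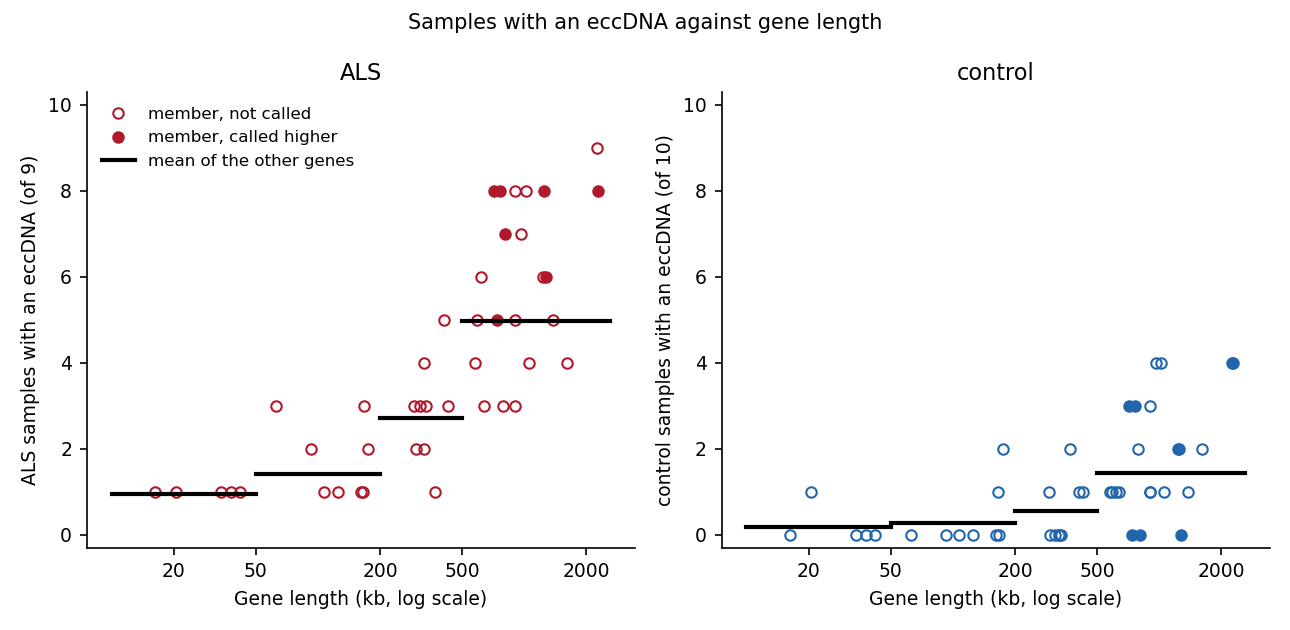
Number of ALS samples (left) and control samples (right) with an eccDNA, against gene length in kb (log scale), for the 44 genes (open points, or filled where called higher in ALS), with the mean over the other genes of each length class as horizontal bars. Members over 500 kb average 5.91 ALS samples and the other genes of that length 4.98.

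Set beside other genes over 500 kb, members of that length held an eccDNA in somewhat more samples, 5.91 against 4.98 in ALS and 1.86 against 1.45 in controls. Per Mb of gene the order turned in ALS, with 0.621 samples against 0.672, and was equal in controls at 0.176. The median number of split reads per Mb and ALS sample was 56.1 in members and 49.2 in the other genes. In base composition, members over 500 kb had a median GC content of 37.8% against 40%, a median of 30.4% against 27.2% in masked repeats and 0.986% against 1.26% in exons. *Cntn5* and *Il1rapl2* were the members with the least exonic sequence, 0.364% and 0.368%. None of these contrasts between sets of genes was tested.

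Many values rested on few reads. When the correction for length was taken back, 99.6% of the 225 values above 0 were whole numbers of split reads (tolerance 0.02). In ALS their median was 19 split reads over 175 values, of which 39.4% were 10 or fewer and 7 were above 1000. In controls the median was 10.5 over 50 values, with 25 of them at 10 or fewer and 3 above 1000. Over all genes with a known length, values above 0 had a lower median of 7 split reads in both groups. Of these, 58.6% in ALS and 58.4% in controls were 10 or fewer. Per library, members took a median of 1.66% of the split reads on genes in ALS and 0.527% in controls, with ranges of 0.632% to 7.64% and 0.00416% to 45.9%. A single gene often carried the total. In control 5 all 1646 member reads lay on *Nlgn1*, and in control 8 *Cntnap2* held 99.7% of 9007. Rolling circle amplification copies each circle many times, so the reads do not count molecules and carry no counting interval here.

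Some eccDNAs on members also counted for another gene. For 13 members, 18 genes of the table overlap them, and in 20 cases a member and its overlapping gene held an eccDNA in the same library, with equal split reads in 7. *Flrt3* lies in *Macrod2* and *Lrrtm3* in *Ctnna3*, on the opposite strand. *Lrfn1* lies in *Samd4b* in the same way, and the values of these 2 genes were equal in split reads, 12 each. Since eccDNA has no strand, overlapping genes cannot be told apart where a circle covers both.

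Members on chromosomes whose share of genes was uneven between libraries carry a limit. Between ALS libraries, chi-square over degrees of freedom of a chromosome's share had a median of 7.31 on chromosomes 1 and 10 to 19. It was above 3 on 9 of these 11 chromosomes, which hold 13 of the 17 members there, and at 1.42 on chromosome 17 and 1.99 on chromosome 19. It reached 7.23 on the X chromosome and had a median of 0.846 on chromosomes 2 to 9. On chromosome 1, where *Adgrb3*, *Cntnap5a* and *Cntnap5b* lie, the share was lowest in ALS 2 (1.60% of genes) and highest in ALS 4 (13.8%). ALS 2 was the ALS sample without an eccDNA on *Cntnap5b*, and ALS 4, at the other end, that without one on *Adgrb3*. Of the called genes, 4 lie among the 24 members on chromosomes 2 to 9 (16.7%), 2 among the 17 on chromosomes 1 and 10 to 19 (11.8%) and 1 among the 3 on the X chromosome. The part of the uneven chromosome shares in the differences was not tested.

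The load of the libraries was higher in ALS, and its part was examined for the named members. With a covariate for this load, log2 of a sample's number of genes above 0, 0 members were called higher and *Cntn6* was called lower, by -8.30 (permutation of residuals, p = 0.00772). In the same fit 3.65% of all genes were called lower and 0.0720% higher, so that 1 of 44 members lower is no more than the background. *Adgrl3* had a difference of 6.65 and was no longer called (permutation of residuals, p = 0.0469), and *Il1rapl2* and *Tenm4* were at 3.16 and 2.62 with a permutation p of 0.162 and 0.225. Those of *Cntn5*, *Adgrb3*, *Ptprd* and *Cntnap5b* became 2.29, 1.54, 0.99 and 0.21, with a permutation p between 0.486 and 0.935. The sign turned in 9 of the 26 genes named by rule, with *Cntn4* at -2.07, *Cntnap2* at -1.69 and *Cadm2* at -1.53. *Nlgn1* went the other way, from 2.69 to 6.94 (permutation of residuals, p = 0.0601). As 8 of the 9 ALS libraries have a higher load than every control, load and genotype cannot be told apart in these samples.

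**Figure D5:**
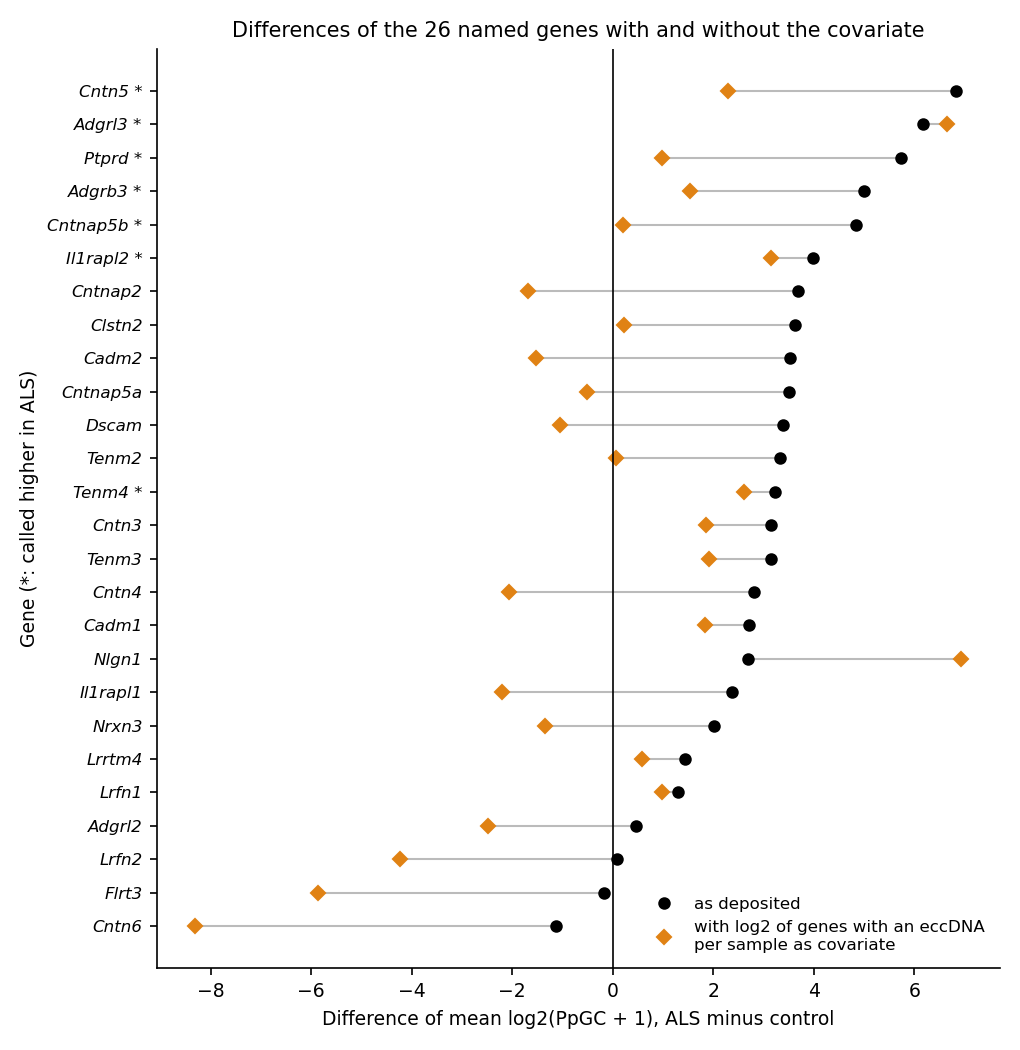
Difference of mean log2(PpGC + 1), ALS minus control, of the 26 genes named by rule, as deposited (black circles) and with log2 of the number of genes with an eccDNA per sample as a covariate (orange diamonds). The difference of *Adgrl3* stays above 6 in both, that of *Cntnap5b* falls to 0.21, and 9 genes cross 0.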

How the data were processed

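EccDNA of cervical spinal cord from 9 *hSOD1G93A* and 10 C57BL/6J mice was enriched from 400 ng of DNA per animal by 7 days of exonuclease V and 48 h of rolling circle amplification. The authors mapped paired-end reads to mm10 with Circle_Finder, merged neighbouring circles, dropped those with fewer than 2 split reads and mitochondrial DNA, assigned the rest to GENCODE genes with bedtools, and deposited log2(PpGC + 1), which is corrected for the length of a gene but not for the depth of a library. Tool versions are not given in the sources used here. Columns of other samples numbered 0.

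The deposited log2 values were used unchanged. Of the 8336 symbols, 8088 were found in GENCODE release M21, which gave lengths, overlaps and split reads. Sequence came from GRCm38 through coordinates of that annotation, and proteins were not used here. The equal-variance test of means that the methods name without sides was run two-sided on every gene, with a difference above 1 and p under 0.01 as a call. Named genes had two-sided exact permutation over 92378 splits, or 100000 permutations of residuals with the covariate (seed 20). Each library is 1 animal, so p-values measure the spread between libraries, in which animals and library preparation cannot be told apart. The members, the partner list and the rules were chosen with earlier results of these data known.

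Genes were named where called, where given as markers of the set (*Cntn5*, *Cntnap5b*, *Tenm4*, *Adgrl3*, *Cadm2*), where found in at least 4 ALS or 2 control samples, for the 3 lowest differences, and as the longest and shortest member. Of the partners, those called and up to 4 found in most ALS samples were named. A member and a partner that the rule would name are not reported here, though counts over the lists include them. All other genes were named only to spell out a count. The alternatives were limma's moderated test, exact permutation, Benjamini-Hochberg adjustment, p under 0.05 or 0.001, the load covariate, equal totals, no length scaling, a pseudocount of 100, values under log2 8 set to 0, presence alone, a minimum of 3 samples, a replicate block and leaving out each library. The tests were checked on simulated data. Python 3.11.15, NumPy 2.4.6, pandas 2.3.3, SciPy 1.17.1, matplotlib 3.10.9, R 4.3.3 and limma 3.58.1 were used.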

Additional observations from a re-analysis of the deposited data

Results flagged for a closer look

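Single libraries stood far from the rest of their group in 23 of the 60 gene and group combinations or totals looked at, where about 1 in 20 would be marked by chance in groups of like spread. Most values of these genes are 0, so that a lone value above 0 is marked by construction. The mark is a gap to the nearest sample that is large for the range of the group (Dixon's criterion).

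Of the ALS samples, ALS 9 stood apart in *Clstn2* at a log2 PpGC of 17.54, ALS 8 in *Cntn6* at 7.91 and in *Lrfn2* at 9.14, ALS 1 in *Flrt3* at 8.76, ALS 2 in *Lrfn1* at 11.68 and ALS 3 in *Lrrtm4* at 11.80. On the low side, ALS 6 was the only ALS sample at 0 in *Cntnap5a* and ALS 2 the only ALS sample at 0 in *Cntnap5b*.

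Of the controls, control 1 stood apart in *Clstn2* at 8.44, *Cntnap5a* at 14.11, *Cntnap5b* at 10.20, *Flrt3* at 11.45, *Il1rapl1* at 7.34 and *Lrfn2* at 9.39. Control 2 did so in *Cntn5* at 10.37 and *Dscam* at 5.77. In control 8 it was *Cntn3* at 6.26 and *Cntnap2* at 14.11, in control 5 *Nlgn1* at 12.98 and in control 7 *Tenm3* at 12.17. In *Cntnap2*, *Cntnap5a*, *Cntnap5b*, *Flrt3*, *Lrfn2*, *Nlgn1* and *Tenm3* that control value was above every ALS value.

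The summed split reads on members were highest in ALS 9 at 29891 and, among controls, in control 8 at 9007. As a percentage of the split reads on genes, control 5 stood apart at 45.94%.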

How the results depend on the processing

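Of the members 7 were called higher, among 111 of all genes. The counts were 7 of 166 with limma's moderated test, 6 of 68 with an exact permutation p, 6 of 71 without length scaling and 12 of 350 at p under 0.05. With genes in at least 3 samples only, the count was 7 of 111, but this filter alters no difference or unadjusted p of the genes kept. By presence alone 3 of 57 called genes were members (*Adgrl3*, *Cntn5*, *Il1rapl2*), and *Adgrl3* was the 1 of 29 at p under 0.001 and the 1 of 60 with equal totals. It was 0 of 6 with Benjamini-Hochberg adjustment over all genes and 0 of 6 with the load covariate. The count was 0 of 9 with a pseudocount of 100 and 0 of 2 with values under log2 8 set to 0. With Benjamini-Hochberg adjustment over only the 1276 genes in at least 3 samples, 4 members were under 0.05. Leaving out 1 library gave 6 to 8 called members, among 85 (without ALS 3) to 133 (without ALS 4) called genes. The difference in members per sample, 14.4, was 6.03 with values of at least log2 8 and 13.5 to 15.7 with 1 library left out. The sign reversed in 10 of the 26 genes named, and in none of the 7 called over 25 alternatives each. The called genes had been selected for a large positive difference, from 3.23 to 6.84, so few alternatives could turn their sign. In *Adgrl3*, *Il1rapl2* and *Tenm4*, with every control at 0, leaving out 1 library could not do so. With the load covariate, differences became -2.47 (*Adgrl2*), -1.53 (*Cadm2*), -2.07 (*Cntn4*), -1.69 (*Cntnap2*), -0.51 (*Cntnap5a*), -1.05 (*Dscam*), -2.21 (*Il1rapl1*), -4.23 (*Lrfn2*) and -1.35 (*Nrxn3*), and with equal totals -0.34 (*Adgrl2*) and -0.29 (*Lrfn2*). With 1 library left out, *Adgrl2* ran from -0.56 to 1.11, *Lrfn2* from -0.94 to 1.02 and *Flrt3* from -1.15 to 0.97. The cause of these changes was not tested. Same-numbered samples did not deviate together (correlations of -0.021 to 0.023 over 9 pairs, own number best in 2), so that no pairing by number was seen. A shared preparation of same-numbered samples was not tested. With the replicate number as a block, 6 members of 54 genes were called, without *Tenm4*, and *Lrfn2* was at -0.03. Sequencing depth is not in the table, and circles with fewer than 2 split reads are not seen.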
